A study of Mus musculus with 2 samples.

Results

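The 9 genes described here, *Foxp3*, *Ikzf2*, *Ikzf4*, *Il2ra*, *Izumo1r*, *Nrp1*, *Lrrc32*, *Gpr83* and *Cd4*, are used to recognize regulatory CD4 T cells (Tregs). They were chosen by name among the 27998 genes counted, and each name matched 1 gene. The cells came from pancreatic islets of female NOD mice, a model of type 1 diabetes, at 9 to 10 wk of age, and were studied as 1 droplet library per genotype. The wild-type library was made from NOD.Foxp3-EGFP mice and the knockout library from NOD.Tnfrsf9-/-.Foxp3-EGFP mice, which lack *Tnfrsf9*, the gene for the costimulatory receptor CD137, in all cells. Islet cells of 6 mice were pooled for each library, and both strains carry a reporter that makes cells expressing *Foxp3* fluoresce green. The study sorted CD8 T cells and green fluorescent CD4 T cells into the same tube, so the ratio of the cell types in a library is not informative.

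Expression was read as unique molecular identifiers (UMIs), tags that each count 1 captured transcript. Among cells that had 200 to 5000 genes and no more than 20% of UMIs from mitochondria, those with no UMI of *Cd8a* or *Cd8b1* and at least 3 UMIs of the CD3 genes were taken as Tregs, and cells with at least 2 UMIs of *Cd8a* or *Cd8b1* as CD8 T cells. None of the 9 genes was used in these limits. The wild-type library held 1546 Tregs and 927 CD8 T cells, and the knockout library held 1440 Tregs and 1239 CD8 T cells. Tregs had medians of 4337.5 (wild type) and 4363.5 (knockout) UMIs per cell, and CD8 T cells had medians of 6159 and 5343. With 1 library per genotype no test between genotypes was possible, so no p-value is given. Every interval in parentheses is a 95% interval that covers counting error only, not the spread between mice. *Tnfrsf9* itself was at 335 counts per 1000000 UMIs (CPM) in wild-type Tregs and at 108 CPM in knockout Tregs, a log2 ratio of -1.63 (interval -1.74 to -1.52). The kit counts transcripts by their 3′ end, and the part of the gene deleted in the global knockout is not given in the sources used here. The libraries shared 16 cell barcodes. Cells of other types were few: summed over the cells of a class, the B cell, myeloid, acinar, endocrine, endothelial or stromal and erythroid marker lists each stayed between 0 and 94.4 CPM.

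Tregs are CD4 T cells that restrain other immune cells, and the transcription factor FOXP3 sets and keeps their program. FOXP3 works beside the Ikaros family members Helios (*Ikzf2*) and Eos (*Ikzf4*), and it sustains *Il2ra*, the alpha chain (CD25) that gives the interleukin-2 receptor its high affinity. Interleukin-2 received through this receptor activates STAT5, which in turn maintains *Foxp3*. In the islets of NOD mice, Tregs hold back the T cells that destroy beta cells.

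The genes lie on 8 chromosomes in the GENCODE vM21 annotation of GRCm38 (mm10), the build named in the submitters' processing notes. *Foxp3* spans chrX:7573644-7595245 on the forward strand, and its gene model overlaps that of *Flicr*, a noncoding RNA on the same strand, which had 62 UMIs in wild-type and 82 in knockout Tregs. It also overlaps *Ppp1r3f* and *Ccdc22* on the opposite strand, with 109 and 102 UMIs for *Ppp1r3f* and 10 and 6 for *Ccdc22*. *Gpr83* and *Izumo1r* are neighbors on chromosome 9, 15 kb apart with no annotated gene between them, and are read in opposite directions. Their levels are given separately below because they differed in direction between the genotypes.

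Promoter windows of 300 bases, from 250 before to 50 after a transcription start, were found in RefSeq (GRCm38.p6) for 5 of the 9 genes, with 2 windows for *Foxp3*; *Ikzf2*, *Ikzf4*, *Lrrc32* and *Cd4* had none. Both windows of *Foxp3* and that of *Il2ra* are shown as the factor and the receptor at the center of the Treg program, and those of *Izumo1r* and *Gpr83* as the pair of neighbors. The window of *Nrp1*, not shown, held none of the motifs. Each is written 5′ to 3′ along its gene, and capitals mark matches on either strand to forkhead (TAAACA), Ikaros family (TGGGAA), STAT (TTCNNNGAA), RUNX (TGTGGT) or NFAT (TGGAAA) motifs.
Foxp3, chrX:7579426-7579725, forward strand: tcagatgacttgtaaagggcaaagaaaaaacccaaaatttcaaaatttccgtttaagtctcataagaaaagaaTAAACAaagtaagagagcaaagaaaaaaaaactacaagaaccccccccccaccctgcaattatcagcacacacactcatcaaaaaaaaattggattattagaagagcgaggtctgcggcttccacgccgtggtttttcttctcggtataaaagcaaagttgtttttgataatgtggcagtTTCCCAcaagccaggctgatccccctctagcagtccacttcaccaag
Foxp3, chrX:7580233-7580532, forward strand: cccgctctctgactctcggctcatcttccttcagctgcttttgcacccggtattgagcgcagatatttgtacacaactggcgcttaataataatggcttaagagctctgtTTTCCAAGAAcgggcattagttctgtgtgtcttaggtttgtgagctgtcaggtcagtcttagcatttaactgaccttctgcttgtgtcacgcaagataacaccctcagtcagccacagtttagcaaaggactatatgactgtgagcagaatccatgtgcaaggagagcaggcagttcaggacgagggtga
Il2ra, chr2:11642542-11642841, forward strand: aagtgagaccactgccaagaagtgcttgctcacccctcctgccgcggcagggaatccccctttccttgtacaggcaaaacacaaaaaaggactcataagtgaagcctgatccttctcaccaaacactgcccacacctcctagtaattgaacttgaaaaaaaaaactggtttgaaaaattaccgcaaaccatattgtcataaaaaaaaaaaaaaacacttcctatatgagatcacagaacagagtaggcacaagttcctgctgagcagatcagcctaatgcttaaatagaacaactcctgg
Izumo1r, chr9:14903718-14904017, reverse strand: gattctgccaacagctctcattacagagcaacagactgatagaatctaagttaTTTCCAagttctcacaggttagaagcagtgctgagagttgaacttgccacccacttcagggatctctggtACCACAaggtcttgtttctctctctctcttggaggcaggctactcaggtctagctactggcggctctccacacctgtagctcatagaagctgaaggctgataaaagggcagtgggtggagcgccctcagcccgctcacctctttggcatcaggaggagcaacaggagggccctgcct
Gpr83, chr9:14859960-14860259, forward strand: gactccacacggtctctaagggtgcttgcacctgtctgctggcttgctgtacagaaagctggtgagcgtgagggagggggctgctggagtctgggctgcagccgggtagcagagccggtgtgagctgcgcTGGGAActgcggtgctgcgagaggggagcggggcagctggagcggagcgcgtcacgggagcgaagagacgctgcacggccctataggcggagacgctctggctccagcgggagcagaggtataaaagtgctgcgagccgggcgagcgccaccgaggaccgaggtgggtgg
The upstream *Foxp3* window held 1 forkhead match and 1 Ikaros family match, the downstream one 1 STAT match that overlaps 1 NFAT match, the *Izumo1r* window 1 RUNX match and 1 NFAT match, and the *Gpr83* window 1 Ikaros family match. The *Il2ra* window held none of these letters. Among all 32851 RefSeq windows of the same length, 13.4% held the forkhead letters, 25.6% the Ikaros family letters, 8.30% the STAT letters, 16.8% the RUNX letters and 21.4% the NFAT letters, so each match is a common one. The *Gpr83* window was 67% G or C with 24 CpG dinucleotides, whereas the upstream *Foxp3* window was 40.7% G or C with 6, beside a median of 52.7% G or C over all windows.

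All 9 genes were more abundant in Tregs than in CD8 T cells in both libraries. The sort on CD4 and the reporter fixed this direction for *Cd4* and *Foxp3*, and the others were chosen by name as Treg genes. The counts below therefore describe the cell classes and do not test the genes. Each was at least 2-fold higher in Tregs, where 9.49% of the 11327 genes tested were that much higher in the wild-type library and 7.8% of 11454 in the knockout library. None of the 9 was at least 2-fold lower, compared with 4.45% and 4.81% of all genes. The median log2 ratio of the 9 genes was 3.19 (wild type) and 3.38 (knockout), and that of all genes was 0.11 and 0.14. TMM scaling of the class totals lowers all of these ratios by 0.095 (wild type) and 0.15 (knockout).

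*Foxp3* was 48.1-fold (wild type) and 30.7-fold (knockout) higher in Tregs than in CD8 T cells but was seen in few cells. It had 231 UMIs in wild-type Tregs, in 13% of cells (interval 11.4 to 14.8), and 332 UMIs in knockout Tregs, in 19.3% (17.3 to 21.4). In CD8 T cells it had 4 and 11 UMIs, in 0.431% (0.118 to 1.10) and 0.726% (0.333 to 1.37) of cells. The share in Tregs thus lay far above the share in cells that should lack the gene, although CD8 T cells were sequenced more deeply. Of the *Foxp3*-positive Tregs, 86.1% (wild type) and 85.6% (knockout) carried a single *Foxp3* UMI, and the highest count in a cell was 3 and 5. A missing *Foxp3* UMI thus says little about a single Treg at this depth. The CD4 T cells had been sorted for the reporter, and the reporter itself is not among the genes counted.

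The Ikaros family members differed in how many cells carried them. *Ikzf2* was detected in 93.5% (92.2 to 94.7) of Tregs in the wild-type library and 91.2% (89.6 to 92.6) in the knockout library, with 10 or more UMIs in 45.9% and 47.4% of cells. It was also found in 42.2% and 29.7% of CD8 T cells, where 5.18% and 3.79% had 10 or more UMIs. Its level in CD8 T cells was 12.9% of that in Tregs in the wild-type library and 10.5% in the knockout library. *Ikzf4* was detected in 37.5% (35.0 to 39.9) of Tregs in the wild-type and 30.1% (27.7 to 32.5) in the knockout library, compared with 11.8% and 8.72% of CD8 T cells.

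Among the surface proteins, *Izumo1r* (folate receptor 4) reached 87.6% (85.9 to 89.2) of Tregs in wild-type and 86.1% (84.2 to 87.9) in knockout islets, compared with 31.0% and 26.7% of CD8 T cells. *Il2ra* was detected in 36.6% (34.2 to 39.1) and 41.7% (39.2 to 44.3) of Tregs, compared with 6.58% and 5.17% of CD8 T cells. *Nrp1*, the coreceptor neuropilin-1 that is often used to mark Tregs made in the thymus, was detected in 36.3% (33.9 to 38.7) and 39.4% (36.9 to 42.0) of Tregs, and CD8 T cells had it in 21.7% and 20% of cells. It was the member with the smallest ratio of levels between the classes, with log2 ratios of 1.35 (1.19 to 1.52) and 1.25 (1.10 to 1.39). *Lrrc32*, which encodes GARP, the protein that holds latent TGF-beta on the Treg surface, was detected in 8.60% (7.25 to 10.1) and 8.75% (7.34 to 10.3) of Tregs, and in few CD8 T cells (0.647% and 0.323%). *Gpr83*, a G protein-coupled receptor, was detected in 16.3% (14.5 to 18.2) and 19.8% (17.8 to 21.9) of Tregs, against 1.83% and 2.02% of CD8 T cells. *Cd4*, the coreceptor the cells were sorted on, was detected in 60.0% (57.5 to 62.5) and 57.0% (54.4 to 59.6) of Tregs, against 3.67% and 2.82% of CD8 T cells. The log2 ratio of Tregs over CD8 T cells for *Cd4* was 4.54 (4.17 to 4.93) in the wild-type and 4.52 (4.17 to 4.90) in the knockout library.

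**Figure D1:**
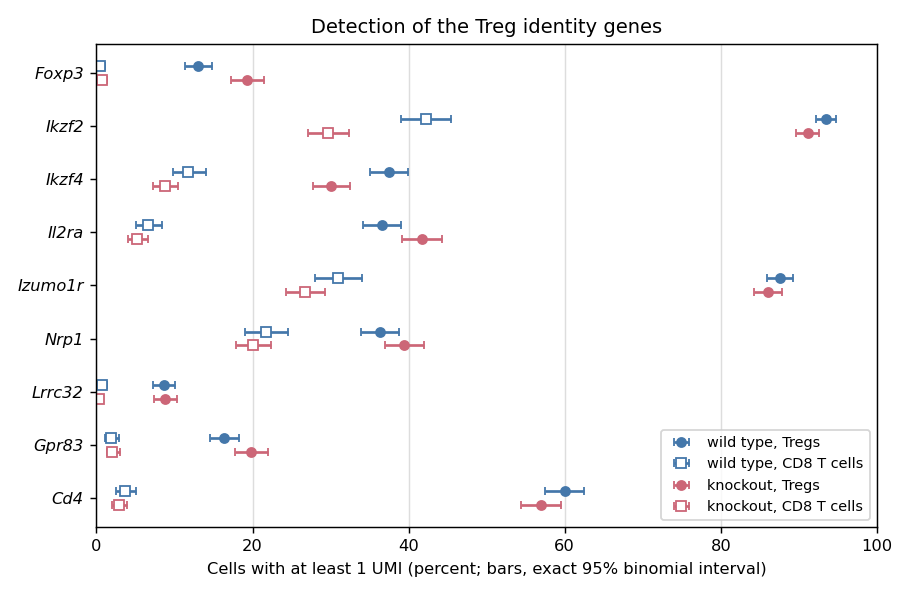
Share of cells with at least 1 UMI (x axis, percent) of each of the 9 genes (y axis) in Tregs (filled circles) and CD8 T cells (open squares) of the wild-type and knockout libraries, with exact 95% binomial intervals. Here *Ikzf2* and *Izumo1r* are the only genes found in over 80% of Tregs in both libraries, and *Foxp3*, *Lrrc32* and *Gpr83* are found in under 3% of CD8 T cells.

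Because detection depends on depth, each cell was also thinned at random to 2000 UMIs, which left out 60 wild-type and 40 knockout Tregs. *Foxp3* detection was then 6.46% (5.26 to 7.83) for wild-type Tregs and 8.5% (7.09 to 10.1) for knockout Tregs, a difference of 2.04 percentage points (0.120 to 3.99) compared with 6.30 (3.67 to 8.95) as counted. *Izumo1r* was in 75.0% and 67.9% after thinning, a difference of -7.11 points (-10.4 to -3.81), where the shares as counted differed by -1.53 (-3.97 to 0.887). *Ikzf4* differed by -3.44 points (-6.22 to -0.649) and *Il2ra* by 4.50 (1.42 to 7.57) after thinning. For *Ikzf2*, *Nrp1*, *Lrrc32*, *Gpr83* and *Cd4* the interval of the thinned difference included 0.

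The comparison of genotypes asks at what level Tregs that lack CD137 carry the genes that define them. The CD4 T cells were sorted on CD4 and the *Foxp3* reporter, so the presence of *Foxp3* and *Cd4* was fixed by the sort. It cannot show whether other cells lost them. In the knockout Tregs so sorted, the 9 genes were at 0.758 to 1.56 times their wild-type level. *Foxp3* was 25.9 CPM (22.7 to 29.5) in wild-type and 40.5 CPM (36.3 to 45.1) in knockout Tregs, a log2 ratio of 0.65 (0.40 to 0.89). It was the only member past 1.5-fold in either direction, and 7.05% of the 11426 genes tested were at least 1.5-fold higher in knockout Tregs. No member was at least 1.5-fold lower, compared with 3.77% of all genes. The median log2 ratio was 0.13 over the 9 genes and 0.038 over all genes tested.

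The Ikaros family members differed in direction. *Ikzf2* was 1834 CPM in wild-type and 2001 CPM in knockout Tregs, a log2 ratio of 0.13 (0.095 to 0.16). *Ikzf4* was 106 CPM in wild-type and 80.3 CPM in knockout Tregs, a log2 ratio of -0.40 (-0.55 to -0.25). The difference in *Ikzf2* was small: under 10 other scalings and limits on cells it lay between 0.049 and 0.14 on the log2 scale. The share of Tregs with *Ikzf2* as counted went the other way, with a difference of -2.35 points (-4.29 to -0.446).

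Of the surface proteins, *Il2ra* was 144 CPM in wild-type and 183 CPM in knockout Tregs, a log2 ratio of 0.35 (0.24 to 0.46). *Gpr83* was 44.4 and 56.3 CPM, a log2 ratio of 0.34 (0.14 to 0.54), whereas its neighbor *Izumo1r* was 952 and 770 CPM, a log2 ratio of -0.31 (-0.35 to -0.26). *Nrp1* was 138 and 162 CPM, a log2 ratio of 0.24 (0.12 to 0.35). *Lrrc32*, with 155 and 149 UMIs in all, had a log2 ratio of 0.065 (-0.27 to 0.40), and *Cd4* one of -0.091 (-0.19 to 0.0094), so a difference in either was not detectable at this depth. Thus *Foxp3*, *Il2ra*, *Gpr83*, *Nrp1* and *Ikzf2* were higher and *Izumo1r* and *Ikzf4* lower in knockout Tregs by more than counting error. The spread between mice is not known for any of them, and the share of all genes beyond counting error is not given. The ratio intervals treat UMIs as independent, although a wild-type Treg held up to 72 *Ikzf2* UMIs, so they leave out the spread between cells.

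**Figure D2:**
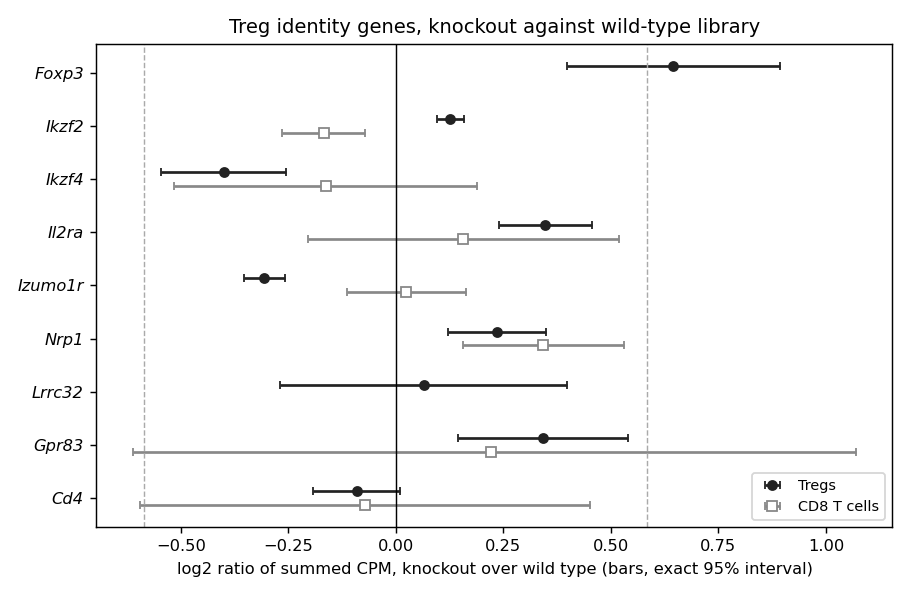
Log2 ratio of knockout over wild-type CPM (x axis) for each gene (y axis) in Tregs (filled circles) and CD8 T cells (open squares), with exact 95% intervals; dashed lines mark 1.5-fold. *Foxp3* in Tregs, at 0.65, lies past the line, while the Treg values of *Izumo1r* (-0.31) and *Ikzf4* (-0.40) lie below 0; *Foxp3* and *Lrrc32* in CD8 T cells, with at most 11 UMIs in a library, are not drawn.

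The libraries also differed in how many Tregs carried genes of naive T cells. Of 5 naive genes, 3 were at least 1.5-fold higher in knockout Tregs and 1, *Ccr7*, named after its value was seen, was lower, with a log2 ratio of -0.31 (-0.51 to -0.11). The naive list summed to 345 CPM in wild-type and 500.3 CPM in knockout Tregs. Tregs of both libraries were therefore divided together into 3 ranges of equal size by their naive UMIs per 10000. Of the wild-type Tregs 27.3% fell in the high range and 38.2% in the low range, and of the knockout Tregs 39.8% and 28.2%.

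Tregs with more naive UMIs had more *Nrp1* and less *Izumo1r* in both libraries. *Nrp1* was at 94.9, 135 and 215 CPM from the low to the high range in wild-type Tregs and at 98.3, 150.5 and 234 CPM in knockout Tregs. Within a range its log2 ratio of knockout over wild type was 0.051 (-0.20 to 0.30), 0.15 (-0.029 to 0.33) and 0.12 (-0.062 to 0.31), each including 0. *Izumo1r* went from 1060 to 922 and 829 CPM in wild-type and from 881 to 797 and 637 CPM in knockout Tregs, and stayed lower in knockout Tregs in all 3 ranges, with log2 ratios of -0.27, -0.21 and -0.38 whose intervals left out 0. *Foxp3* had log2 ratios of 0.59 (0.15 to 1.03), 0.36 (-0.047 to 0.78) and 0.98 (0.49 to 1.48) from the low to the high range. *Il2ra* was higher in knockout Tregs in each range, with log2 ratios of 0.35, 0.27 and 0.42. *Ikzf4* was lower in the low and middle ranges, with log2 ratios of -0.48 (-0.75 to -0.22) and -0.40 (-0.62 to -0.17), and in the high range its value was -0.23 (-0.53 to 0.072). The naive ranges also differed in depth, with medians of 4243.5, 5493 and 3440 UMIs (wild type) and 4423, 5633 and 3501 (knockout). By UMIs per cell, *Nrp1* was at 261, 157 and 97.1 CPM from the shallowest to the deepest wild-type Tregs. In knockout Tregs it was at 255, 212 and 113 CPM. The part of depth in the naive ranges was not tested.

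**Figure D3:**
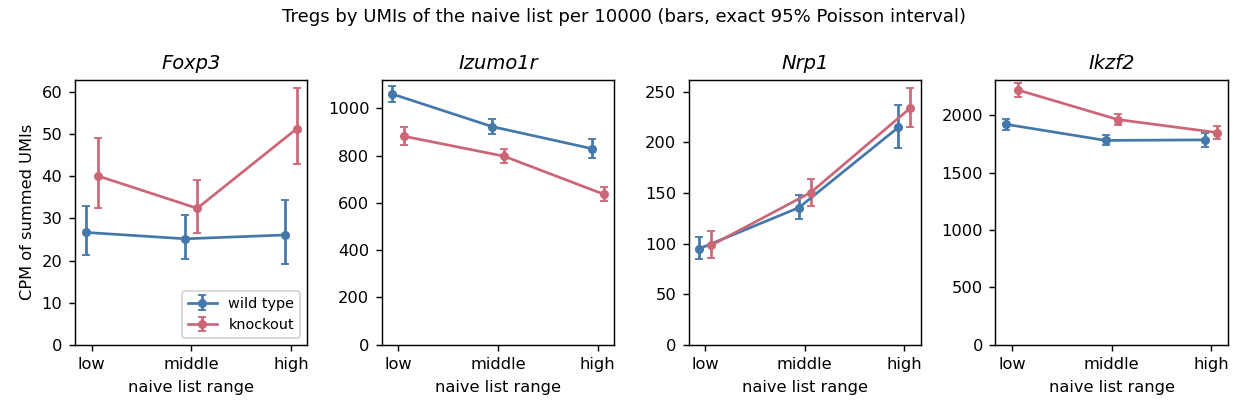
Level (y axis, CPM of summed UMIs, with exact 95% Poisson intervals) of *Foxp3*, *Izumo1r*, *Nrp1* and *Ikzf2* in wild-type and knockout Tregs within the low, middle and high ranges of naive UMIs per 10000 (x axis). *Nrp1* runs from 94.9 to 215 CPM (wild type) and from 98.3 to 234 CPM (knockout), and the libraries overlap in each range, while *Izumo1r* is lower in the knockout library in each range.

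Genes of cytotoxic cells also differed between the libraries, and *Nrp1* differed with them. The cytotoxic list summed to 1179 CPM in wild-type and 758 CPM in knockout Tregs, compared with 12977 and 6673 CPM in CD8 T cells. Most of the Treg sums came from *Ccl5* (550 and 282 CPM) and *Nkg7* (496 and 369 CPM). All 8 genes of the list had UMIs in Tregs, but *Klrc1* had only 8 and 4 and *Prf1* 8 and 22. In knockout Tregs 4 of the 8 were lower and 1, *Prf1*, higher by more than counting error. Of wild-type Tregs 48.7%, and of knockout Tregs 64.6%, had 0 or 1 UMI of this list. These cells were also shallower, with medians of 3506 and 3805 UMIs against 5552 and 5434, and their naive sums were 506 and 608 CPM against 253 and 357, so depth and naive genes move with this split. In these cells *Nrp1* was at 214 CPM in the wild-type and 204 CPM in the knockout library, and in Tregs with 2 or more cytotoxic UMIs it was at 93.7 and 106 CPM. Among Tregs with 0 or 1 cytotoxic UMI, the log2 ratio of *Nrp1* was thus -0.072, against 0.24 over all Tregs. *Foxp3* kept a log2 ratio of 0.64 there, at 26.2 and 40.9 CPM. Dividing Tregs into 3 ranges of UMIs per cell gave *Foxp3* log2 ratios of 0.78 (0.25 to 1.33), 0.70 (0.27 to 1.13) and 0.51 (0.13 to 0.88) from the shallowest to the deepest cells, and the value was 0.66 without the shared barcodes. For *Ikzf2* the same ranges gave -0.13 (-0.21 to -0.056), 0.14 (0.085 to 0.20) and 0.19 (0.15 to 0.24), so the shallowest cells went the other way.

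In CD8 T cells the 9 genes were sparse, and 7 had the 20 UMIs needed to be counted. None of the 7 was at least 1.5-fold higher or lower in knockout CD8 T cells, whereas 13.5% of all 11190 genes tested were higher and 7.89% lower. *Ikzf2* was 236 CPM in wild-type and 210.0 CPM in knockout CD8 T cells, a log2 ratio of -0.17 (-0.26 to -0.071), and *Nrp1* was 53.8 and 68.2 CPM, a log2 ratio of 0.34 (0.16 to 0.53). The intervals of the other 7 genes included 0. Here too the naive genes differed, and all 5 were at least 1.5-fold higher in knockout CD8 T cells. In the high naive range, which held 17.4% of wild-type and 45.3% of knockout CD8 T cells, *Ikzf2* was detected in 18.0% and 16.0% of cells. In the low range it was detected in 46.7% and 43.6%, where the level had a log2 ratio of 0.25 (0.091 to 0.42), and in the middle range in 48.0% and 38.9%, with a log2 ratio of -0.059 (-0.19 to 0.073). *Nrp1* was higher in knockout CD8 T cells in the low and middle ranges, with log2 ratios of 0.85 (0.58 to 1.13) and 0.73 (0.46 to 1.01), and lower in the high range, at -0.91 (-1.74 to -0.048) from 20 and 36 UMIs. By 3 ranges of UMIs per cell, *Ikzf2* in CD8 T cells had log2 ratios of -0.68 (-0.95 to -0.40), -0.24 (-0.47 to -0.00085) and 0.14 (0.023 to 0.25) from the shallowest to the deepest cells, so in both classes it was lower in the shallowest and higher in the deepest knockout cells.

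CD8 T cells with an *Ikzf2* UMI were compared with as many of like depth without one. *Nrp1* was detected in 28.6% against 16.6% of these cells in the wild-type library (difference 12 points, 6.17 to 17.8) and in 36.7% against 15.5% in the knockout library (21.2 points, 14.9 to 27.2). *Izumo1r* differed by 13.3 and 16.0 points. *Cd4*, which CD8 T cells should lack, was detected in 7.93% against 0.767% and in 7.34% against 1.36%. *Foxp3* was detected in 0.767% against 0.256% of wild-type cells, a difference within counting error, and in 2.45% against 0 of 368 knockout cells, which allows a share of up to 0.997%. No doublets were removed, and their part in these values was not tested.

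To ask whether the other 8 genes follow *Foxp3* from cell to cell, each Treg with a *Foxp3* UMI was paired with a Treg of its library that had none and was alike in total UMIs. This gave 201 pairs in the wild-type library, with medians of 5187 and 5177 UMIs per cell, and 278 pairs in the knockout library, with a median of 4670.5 in each set. Unpaired *Foxp3*-negative Tregs were shallower, with medians of 4217 and 4241.5.

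At like depth the 2 sets were close. Tregs without a *Foxp3* UMI had also been sorted for the reporter, and most *Foxp3*-positive Tregs held a single UMI. Cells that express *Foxp3* can thus be in either set, so a small difference cannot show that a gene does not follow *Foxp3*. In wild-type Tregs none of the 8 genes was 1.5-fold higher or lower in *Foxp3*-positive cells, whereas 6.44% of 8493 genes were higher and 6.24% lower. In knockout Tregs 1 gene, *Gpr83*, was 1.5-fold higher and none lower, whereas 4.59% of 9083 genes were higher and 6.32% lower. The median log2 ratio of the 8 genes was 0.13 for both libraries, beside 0.029 (wild type) and -0.0011 (knockout) for all genes.

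By level, the genes past counting error were *Ikzf2* and *Izumo1r* in the wild-type library and *Il2ra* and *Gpr83* in the knockout library. The share of all genes past counting error is not given, and these intervals too leave out the spread between cells. In wild-type Tregs, *Ikzf2* was 1905 CPM in *Foxp3*-positive and 1730.3 CPM in *Foxp3*-negative cells, a log2 ratio of 0.14 (0.057 to 0.22). Its share of cells was 96.5% in both sets. *Izumo1r* was 1040.5 and 896 CPM in the same wild-type sets, a log2 ratio of 0.22 (0.10 to 0.33). It was detected in 92.0% against 89.1% of cells, a difference within counting error (-2.84 to 8.88 points). In knockout Tregs the log2 ratio was 0.039 (-0.028 to 0.11) for *Ikzf2* and 0.086 (-0.022 to 0.19) for *Izumo1r*. *Il2ra* had a log2 ratio of 0.031 (-0.24 to 0.30) in wild-type Tregs, detected in 46.8% against 40.8% of cells. In knockout Tregs, *Il2ra* was 231 CPM in *Foxp3*-positive and 161 CPM in *Foxp3*-negative cells, a log2 ratio of 0.52 (0.30 to 0.75), and was detected in 51.4% against 42.8% of cells (difference 8.63 points, 0.339 to 16.8). *Gpr83* was 69.3 and 43.5 CPM, a log2 ratio of 0.67 (0.24 to 1.10), and was detected in 24.8% against 17.3% of cells. In wild-type Tregs *Gpr83* had a log2 ratio of 0.17 (-0.37 to 0.71) and was detected in 17.4% against 19.9% of cells. The difference between the libraries was not tested. *Ikzf4*, *Nrp1*, *Lrrc32* and *Cd4* differed by less than counting error in both libraries, with log2 ratios between -0.15 and 0.38.

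**Figure D4:**
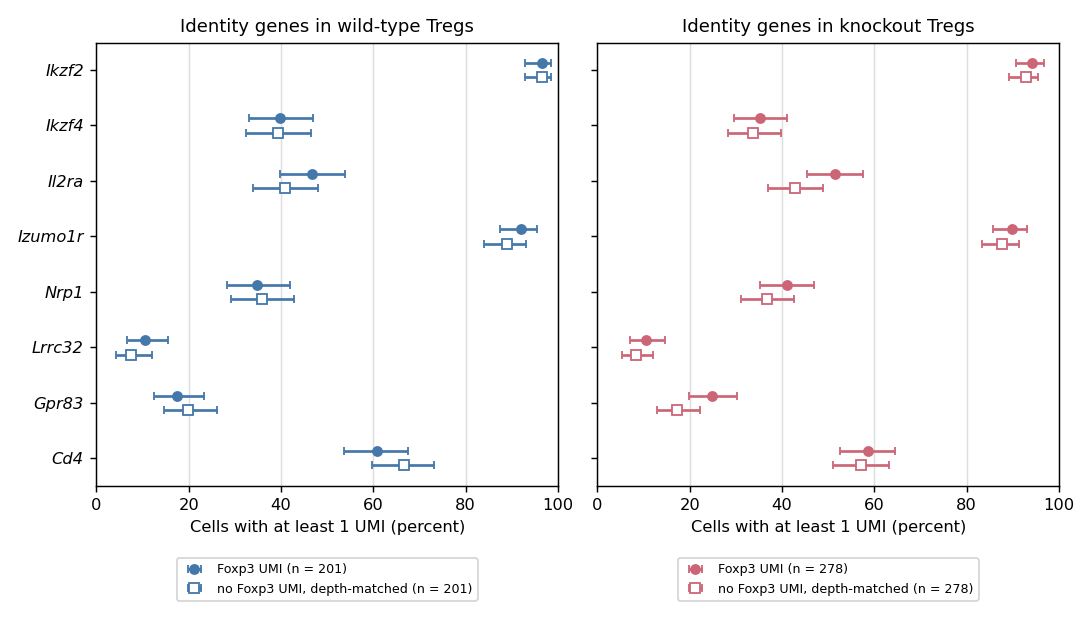
Share of cells with at least 1 UMI (x axis, percent) of each of the other 8 genes (y axis) in Tregs with a *Foxp3* UMI (filled circles) and in as many depth-matched Tregs without one (open squares), for the wild-type (left) and knockout (right) libraries, with exact 95% binomial intervals. The intervals overlap for every gene, and the widest gaps are those of *Il2ra* (51.4% against 42.8%) and *Gpr83* (24.8% against 17.3%) in the knockout library.

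Ranked by the same log2 ratio over the 6221 genes with at least 50 UMIs in the wild-type sets, *Izumo1r* came 1535th and *Ikzf2* 2128th, and *Nrp1* and *Cd4* came 4611th and 4473rd. In the knockout library *Gpr83* came 106th and *Il2ra* 244th of 7088 genes. The 10 genes with the highest wild-type values were led by *Hist1h1b* (1.58), *5730508B09Rik* (1.47), *Incenp* (1.41) and *Hmmr* (1.35) and included *Cdk1* (1.32); *Hist1h1b* encodes a linker histone, and *Incenp*, *Hmmr* and *Cdk1* act in cell division. In the *Foxp3*-positive set, 3 cells gave 38.5% of the UMIs of *Hist1h1b* and 39.1% of those of *Hmmr*. None of the 10 was higher by more than counting error in the knockout library, which the ranking did not use. There *Hist1h1b* (-0.39) and *Cdk1* (-0.65) were lower by more than counting error, and 4 of 10 had a ratio above 0 there, beside 50.1% of all ranked genes. At the other end, *Ccl4* was lowest (-1.83), with 51.3% of its UMIs in the *Foxp3*-negative set coming from 3 cells. All 5 proliferation genes were at least 1.5-fold higher in *Foxp3*-positive wild-type Tregs, where the list summed to 845 against 454 CPM; in the knockout library none was, and the sums were 602 and 737 CPM. The part of proliferating cells in the ratios of the other genes was not tested.

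Detection of 1 member went with detection of some others, mostly in a part of the comparisons. For each of the 36 pairs, the share with the second gene was compared between cells with and without the first at like depth, in either order and in both libraries, giving 4 comparisons a pair. Depth could not be matched where *Cd4* was the first gene: cells with *Cd4* had medians of 4018.5 (wild type) and 4358 (knockout) UMIs, against 3656 and 3618 without it, so no pair with *Cd4* is described. Over all 36 pairs, those with *Cd4* included, 15 were higher by more than counting error in at least 1 comparison and 2 were lower. The share among pairs of other genes was not measured, so these counts say nothing particular about the 9 genes. Both orders of a pair draw on the Tregs of the same library, so the 4 comparisons are not independent. In 2 pairs the share was higher by more than counting error in all 4, *Ikzf2* with *Ikzf4* and *Ikzf2* with *Lrrc32*. Few Tregs lacked *Ikzf2*, so the sets with *Ikzf2* first held only 100 wild-type or 127 knockout Tregs each. Those with *Ikzf2* were a subset chosen for like depth, with medians of 3036.5 (wild type) and 3423 (knockout) UMIs. Within these sets, *Ikzf4* was detected in 31% of wild-type Tregs with *Ikzf2* and 11% of those without, and in 29.1% and 12.6% of knockout Tregs. These are not the shares over all Tregs with *Ikzf2*. *Lrrc32* was detected in 7% against 0 of 100 wild-type Tregs, which allows a share of up to 3.62%, and in 6.30% against 0.787% of knockout Tregs. *Foxp3* and *Il2ra* were found together more often in 3 of 4 comparisons, with differences of 4.95 to 8.63 points over the 4. So were *Ikzf4* and *Lrrc32* (4.66 to 12.7 points) and the neighbors *Gpr83* and *Izumo1r* (3.57 to 9 points).

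*Il2ra* and *Nrp1* were the single pair found together less often in all 4 comparisons. Among wild-type Tregs with *Il2ra*, 28.4% had *Nrp1*, against 41.2% of depth-matched Tregs without *Il2ra*, a difference of -12.7 points (-18.2 to -7.18). In knockout Tregs these shares were 35.8% and 42.9%, a difference of -7.15 points (-12.6 to -1.63). Within the low, middle and high naive ranges the differences were -15.2, -17.9 and -3.52 points in wild-type Tregs and -3.95, -6.60 and -8.81 points in knockout Tregs. All 6 were below 0, and those of the wild-type low (-23.2 to -7.03) and middle (-26.8 to -8.58) ranges exceeded counting error.

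Most Tregs carried several of the 9 genes even with *Foxp3* left out, and in this paragraph *Foxp3* is not counted. As counted, a Treg had a median of 4 of the other genes in both libraries. Tregs with 3 or more made up 84.9% (83.0 to 86.7) in the wild-type library and 82.9% (80.9 to 84.8) in the knockout library, and 0.582% and 1.32% had none. Among CD8 T cells, 12.2% and 11.8% had 3 or more, and 34.1% and 46.7% had none. After thinning to 2000 UMIs, 3 or more were found in 55.1% (52.5 to 57.7) and 53.1% (50.5 to 55.8) of Tregs, compared with 2.64% (1.70 to 3.90) and 2.29% (1.53 to 3.29) of CD8 T cells. The median was then 3 in Tregs and 0 in CD8 T cells, in both libraries.

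Of 4 further lists of Treg biology, the receptors and effectors of Tregs had the largest share higher in Tregs: 17 of 19 were at least 2-fold higher in Tregs than in CD8 T cells in each library, with *Il10* at log2 ratios of 3.62 and 3.85 and *Il1rl1*, which encodes the interleukin-33 receptor, at 3.63 and 4.19. Over all genes, 9.49% and 7.8% were that much higher and 4.45% and 4.81% lower. Of 28 FOXP3 partners and regulators, 5 were in the wild-type library, led by *Gata3* (1.46) and *Smad3* (1.40), and 3 in the knockout library, the latter a share near that of all genes. Of 14 genes of interleukin-2 and STAT5 signaling, 4 were in the wild-type library, among them *Socs2* (3.35) and *Pim1* (2.32), and in the knockout library 3 were higher and 1, *Il7r* (-1.29), lower. Of 10 genes that FOXP3 is known to repress, 3 were at least 2-fold lower in wild-type Tregs, led by *Pde3b* (-4.61), a phosphodiesterase, and *Ifng* (-3.27), and 1, *Cd40lg* (3.26), was higher. In the knockout library 5 of the 10 were lower and *Cd40lg* (3.81) was again higher.

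Between the genotypes few genes of these lists were past 1.5-fold in Tregs, where 7.05% of all genes were higher and 3.77% lower. More differed by more than counting error, but the share of all genes that did is not given. The counts beyond counting error below therefore say nothing particular about these lists. Of the 19 receptors and effectors, 7 were higher and 5 lower by more than counting error, and the list summed to 4942 CPM in wild-type and 4348 CPM in knockout Tregs. *Il1rl1* (0.98) was the only gene of the 19 receptors and effectors past 1.5-fold, followed by *Klrg1* (0.57), *Socs2* (0.52) and *Itgae* (-0.46), and the list's median log2 ratio was 0.081. None of the 28 partners and regulators was past 1.5-fold (median 0.14), 13 were higher and 1 lower by more than counting error, with *Usp7* and *Rel* highest at 0.58 each. None of the 14 interleukin-2 and STAT5 genes was (median 0.15), 7 were higher and 4 lower by more than counting error, with *Socs2* at 0.52 and *Il2rb*, the beta chain of the receptor, at -0.35. Of 9 repressed genes counted, *Pde3b* was higher (0.71) and *Il2* lower (-1.13); these 2 have under 100 UMIs and are named after their values were seen. In *Foxp3*-positive against negative Tregs, *Il10* had log2 ratios of 0.60 (wild type) and 0.55 (knockout), and *Cish*, a STAT5 target, had 0.58 and 0.78. Intervals for these ratios are not given, so whether they exceed counting error is not known. Other genes of their lists went the other way. Of 18 receptors and effectors counted, 15 were above 0 in the wild-type library (median 0.18) and 8 in the knockout library (median -0.096). Past 1.5-fold, 3 of the 18 were higher and none lower in the wild-type library, and 2 were higher and 2 lower in the knockout library. There *Areg*, with 162 UMIs, was more than 1.5-fold lower. Its log2 ratio lay furthest from 0 among the receptors and effectors with at least 100 UMIs. Of the 14 interleukin-2 and STAT5 genes, 10 (wild type) and 11 (knockout) were above 0, with medians of 0.17 and 0.15. Among these 14 genes, *Stat5a* was at -0.55 (wild type) and *Jak3* at -0.68 (knockout).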

How the data were processed

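The authors deposited raw UMI counts per gene and cell barcode for 27998 genes, made with Cell Ranger 7.0.0 from Chromium 3′ version 2 libraries, with mm10 named in the submitters' processing notes; whether intron reads or strand were used is not given in the sources used here. The deposited gene and barcode tables hold names and no other values. Limits on genes and mitochondrial UMIs followed the study's methods, and no doublets were removed. UMIs were summed per class and library and divided by the class total (CPM). Shares have Clopper-Pearson, differences Newcombe, levels Poisson and ratios conditional binomial intervals at 95%. Sums need at least 20 UMIs over both sets to enter a count past a fold. Depth-matched cells were chosen by the smallest total difference in log UMIs, each used once. A gene was named outside the 9 by rank within its list (at least 100 UMIs) or by its ratio in *Foxp3*-positive cells (at least 50 UMIs). The members and lists were chosen with earlier results of these data known. Python 3.11.15, numpy 2.4.6, scipy 1.17.1, pandas 2.3.3, R 4.3.3 and edgeR 4.0.16 (TMM factors only) were used, and the ratio intervals and the matching were tested on simulated data. Alternatives were other scalings, cell limits, gates, weights and thinning, of which leaving out the shared barcodes was added after the data were seen.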

Additional observations from a re-analysis of the deposited data

Results flagged for a closer look

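*Ikzf2* differed between the genotypes in opposite directions in the 2 classes: its log2 ratio of knockout over wild type was 0.13 in Tregs and -0.17 in CD8 T cells, each beyond counting error. By share of cells with a UMI, *Ikzf2* was lower in the knockout library in both classes. The differences were -2.35 points (-4.29 to -0.446) in Tregs and -12.5 points (-16.5 to -8.40) in CD8 T cells. Whether the classes differ was not tested. By UMIs per cell the ratios were -0.13, 0.14 and 0.19 in Tregs and -0.68, -0.24 and 0.14 in CD8 T cells, from the shallowest to the deepest cells, so the opposite directions were not kept within the ranges of the shallowest and the deepest cells.

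*Foxp3* was also detected in cells that no comparison used, above its share in CD8 T cells. Cells with 1 *Cd8a* or *Cd8b1* UMI had it in 10.9% of 193 (wild type) and 16.6% of 181 (knockout). It was also in 8.33% of 48 wild-type and 5.45% (1.14 to 15.1) of 55 knockout cells with no such UMI and under 3 CD3 UMIs, and in 18.2% of 55 knockout and 3.08% (0.375 to 10.7) of 65 wild-type cells with over 5000 genes. The intervals given here reach down to the upper bounds for CD8 T cells, 1.10% (wild type) and 1.37% (knockout). The cells with 1 such UMI also had *Ikzf2* in 85.5% (wild type) and 72.4% (knockout).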

How the results depend on the processing

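No paired analysis was possible because each genotype has 1 library. With no replicate, counting error is the only error known, and for *Lrrc32* and for *Foxp3* in CD8 T cells the counts set the limit. Of 99 alternative values of the genotype ratios in Tregs, 90 stayed within the counting interval. The log2 ratio of *Nrp1* turned to -0.072 with at most 1 cytotoxic UMI. That of *Ikzf2* was 0.084 with TMM scaling, 0.065 with median of ratios scaling, 0.065 with equal weight per cell, 0.049 with at most 1 cytotoxic UMI, 0.072 with no proliferation UMI and 0.078 thinned to 2000 UMIs. *Il2ra* was at 0.46 with equal weight per cell and *Izumo1r* at -0.37 with median of ratios scaling. *Foxp3* detection was 6.46% (wild type) and 8.5% (knockout) in Tregs thinned to 2000 UMIs, 2.14% and 4.34% thinned to 1000, and 10.2% in wild-type Tregs with at most 1 cytotoxic UMI.

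Of 64 alternative ratios of *Foxp3*-positive over negative Tregs, 50 stayed within the counting interval, and the 14 that left it are listed next. With *Foxp3*-positive cells set at 2 or more UMIs, which left 28 wild-type and 40 knockout cells, log2 ratios were 0.47 (*Ikzf2*), -0.59 (*Ikzf4*), -0.85 (*Lrrc32*) and -2.00 (*Gpr83*) in wild-type Tregs. Over all 201 wild-type *Foxp3*-positive Tregs *Lrrc32* had 26 and *Gpr83* 63 UMIs, so these ratios rest on fewer still. In knockout Tregs they were 0.50 (*Ikzf2*), 0.82 (*Ikzf4*), 0.54 (*Izumo1r*), 0.58 (*Nrp1*), 1.58 (*Lrrc32*) and 0.48 (*Cd4*). After thinning to 2000 UMIs they were 0.38 (*Il2ra*) and 0.27 (*Nrp1*) in wild-type and -0.042 (*Ikzf2*) and 1.32 (*Lrrc32*) in knockout Tregs. Counting genes from 1 UMI on gave 1 of the 9 at least 1.5-fold higher and 1 lower in knockout CD8 T cells. The causes were not tested.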
